A study of Mus musculus and Homo sapiens with 10 samples.

Results

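The positions of DNA double-strand breaks were described in mouse jejunal enterocytes sorted as negative for Cd73, using the only 2 libraries of that gate, M1 and M2, out of 10 samples in the series. In-suspension BLISS was used, a method in which break ends in lysed cells and nuclei are blunted and ligated to an adapter, so that each sequenced end marks where a chromosome was broken. The series presents the method with a treated human cell line and sorted enterocytes as worked examples, and the other 8 samples were not analysed here. Both libraries carry the same labels: enterocytes isolated from the jejunum, Cd73/Nt5e negative, with no treatment named. The labels do not give strain, age, sex or whether M1 and M2 come from separate mice, so the spread between them (SD, n = 2) may be technical. There is 1 group and therefore no contrast and no test; every value below is a description. BLISS counts break ends and not transcripts, so the labelled cell type could not be checked through expression of its markers.

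Enterocytes are the absorptive cells of the intestinal villus, which digest sugars, peptides and fats at their brush border and export them to the blood and lymph. Cd73, encoded by Nt5e, is an ectonucleotidase that turns extracellular AMP into adenosine. In many cell types double-strand breaks are known to be frequent at the starts of active genes, where chromatin is open and topoisomerases relax the torsion that transcription builds up.

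Break density here is the number of break ends per kb and per 1000000 break ends on chromosomes 1 to 19 of the same library. A start window runs from 250 bases before to 50 bases after an annotated gene start. The sequences printed are the 250 bases before the start, from RefSeq's GRCm38.p6 promoter table, read 5′ to 3′ on the strand of the gene with each CG dinucleotide in capitals, since the CG number went along with break density at starts. The first 3 are among the 4 densest start windows of genes that overlap no other coding gene.
Uba2, chr7:34168530-34168779, minus strand: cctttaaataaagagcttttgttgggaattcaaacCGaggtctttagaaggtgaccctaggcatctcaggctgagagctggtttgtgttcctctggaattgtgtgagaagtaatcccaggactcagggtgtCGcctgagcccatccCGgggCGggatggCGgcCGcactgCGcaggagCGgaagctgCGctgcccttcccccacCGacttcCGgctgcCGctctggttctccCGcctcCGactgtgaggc
Zcrb1, chr15:93398335-93398584, minus strand: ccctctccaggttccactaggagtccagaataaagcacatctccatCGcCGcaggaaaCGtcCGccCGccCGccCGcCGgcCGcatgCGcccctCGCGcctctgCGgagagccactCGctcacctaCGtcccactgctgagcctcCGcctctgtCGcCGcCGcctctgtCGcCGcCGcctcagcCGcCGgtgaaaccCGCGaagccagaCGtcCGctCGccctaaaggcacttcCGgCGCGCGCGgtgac
Tbc1d10a, chr11:4186583-4186832, plus strand: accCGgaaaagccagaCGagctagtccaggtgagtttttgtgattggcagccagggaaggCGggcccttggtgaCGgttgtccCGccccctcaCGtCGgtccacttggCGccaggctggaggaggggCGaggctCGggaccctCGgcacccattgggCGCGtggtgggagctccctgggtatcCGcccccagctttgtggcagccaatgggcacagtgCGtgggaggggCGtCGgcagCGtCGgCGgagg
The start window of Uba2, a subunit of the SUMO-activating enzyme, held 140 break ends in M1 and 183 in M2. Zcrb1, an RNA-binding protein of the minor spliceosome, had 134 and 130, and Tbc1d10a, a Rab GTPase-activating protein, had 132 and 133. The fourth, Herpud1, an endoplasmic reticulum stress gene not printed here, had 142 and 170. The stretches printed held 14, 34 and 20 CG, in that order. GGGCGG, on either strand, stood in all 3, and CCAAT in that of Tbc1d10a.

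A further 4 stretches, chosen after values were seen, set a dense and a sparse start window of the nutrient absorption list and of the immediate early list side by side; both lists are described with the gene bodies.
Gda, chr19:21472662-21472911, minus strand: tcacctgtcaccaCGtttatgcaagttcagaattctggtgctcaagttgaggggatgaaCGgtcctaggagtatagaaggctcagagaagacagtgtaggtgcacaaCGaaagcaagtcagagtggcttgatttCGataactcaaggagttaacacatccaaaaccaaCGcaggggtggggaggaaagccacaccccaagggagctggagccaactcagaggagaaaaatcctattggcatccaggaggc
Plb1, chr5:32353330-32353579, plus strand: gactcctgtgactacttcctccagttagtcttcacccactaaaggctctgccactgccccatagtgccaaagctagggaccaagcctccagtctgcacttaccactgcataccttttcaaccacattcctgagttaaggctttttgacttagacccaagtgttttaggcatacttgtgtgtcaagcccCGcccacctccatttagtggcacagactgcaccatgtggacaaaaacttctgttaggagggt
Fosl2, chr5:32136222-32136471, plus strand: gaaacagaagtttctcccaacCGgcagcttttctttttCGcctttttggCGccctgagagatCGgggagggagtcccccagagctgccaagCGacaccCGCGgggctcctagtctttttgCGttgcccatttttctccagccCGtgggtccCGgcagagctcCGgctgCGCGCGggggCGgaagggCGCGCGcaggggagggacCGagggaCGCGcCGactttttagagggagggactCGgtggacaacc
Klf4, chr4:55532476-55532725, minus strand: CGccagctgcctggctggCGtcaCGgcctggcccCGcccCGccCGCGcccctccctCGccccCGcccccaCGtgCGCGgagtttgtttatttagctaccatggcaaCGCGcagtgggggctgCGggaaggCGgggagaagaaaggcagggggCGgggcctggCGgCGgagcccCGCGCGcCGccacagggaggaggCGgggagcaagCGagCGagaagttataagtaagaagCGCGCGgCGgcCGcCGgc
Gda, a guanine deaminase, held 79 break ends in M1 and 60 in M2 with 5 CG printed. This start window of Plb1, a brush border phospholipase, held 0 and 1 with 1 CG. It is 1 of 2 listed for Plb1 and lies inside the gene, which spans bases 32232691 to 32364356. Fosl2, a subunit of the AP-1 transcription factor, held 43 and 44 with 23 CG, whereas Klf4, a Krüppel-like transcription factor, held 3 and 0 with 32 CG. A CG-rich stretch was thus printed for a dense and for a nearly empty start. The break ends of Klf4 lay in the gene itself, with 166 in M1 and 191 in M2 over the gene body.

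M1 held 12730960 break ends at 10700978 autosomal positions and M2 held 12286024 at 10234910. Positions with more than 1 break end carried 25.8% of the break ends of M1 and 26.5% of those of M2, and the highest count at a single base was 969 and 938. An occupied 1 kb window, meaning one with a break end in either library, held 5.78 break ends on average in M1 and 5.58 in M2. Of the 2460744 windows up to the last break end of each autosome, 258414 held none and were left out of the length of chromosomes. The average density over the 2202330 occupied windows was 0.454.

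Chromosomes differed in break density by far less than genes did, and gene-rich chromosomes were denser. Chromosome 11 was the densest in both libraries, at 0.518 in M1 and 0.534 in M2 (0.526 ± 0.0116, SD, n = 2). Chromosome 19 followed at 0.511 and 0.517, and chromosome 17 at 0.486 and 0.498. The ranges of the libraries of these 3 chromosomes overlapped neither each other nor that of any other autosome. Chromosome 1 was the sparsest at 0.424 in M1 and 0.416 in M2, next to chromosome 14 at 0.425 and 0.416, and the ranges of these 2 overlapped. The densest autosome exceeded the sparsest 1.22 times in M1 and 1.28 times in M2. Across the 19 autosomes, Spearman's rho of density with coding genes per occupied Mb was 0.882, a description over chromosomes that share both libraries. Chromosome 7, with the most genes per Mb at 16.7, lay only at 0.466 and 0.477. M2 was higher than M1 on 10 of 19 autosomes, among them the densest 6.

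**Figure D1:**
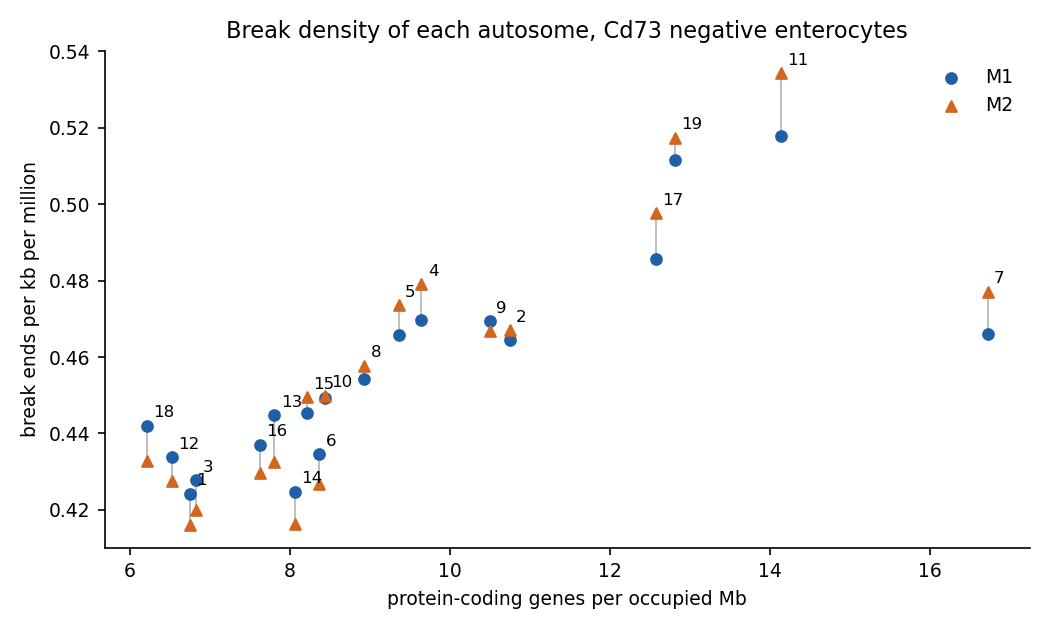
Break density of each autosome in M1 (circles) and M2 (triangles), in break ends per kb per 1000000, against protein-coding genes per occupied Mb; lines join the libraries, numbers name the chromosome, and the y axis does not start at 0. Chromosome 11 was at 0.518 and 0.534 and chromosome 1 at 0.424 and 0.416.

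Within chromosomes, 1 Mb bins with many genes carried more breaks. Of 2451 bins, 2336 had a break end in at least 50% of their 1 kb windows and were described, per full bin length. The median bin had 0.415 in M1 and 0.399 in M2, and the 95th percentile was 2.50 times the 5th percentile in M1 and 2.75 times in M2. The 207 bins with no coding gene had a median of 0.275 in M1 and 0.271 in M2. The median then went up with every class of gene number, through 0.441 and 0.424 in the 595 bins with 5 to 9 genes, to 0.684 and 0.766 in the 55 bins with 40 or more. Across bins the 2 libraries ran together, with a Spearman's rho of 0.992 (n = 2336 bins of the same 2 libraries). Bin density and gene number had a rho of 0.693.

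The densest bin was chr17:39000001-40000000, at 2.28 in M1 and 2.27 in M2. It holds 6 coding genes, all of the Esp family of exocrine gland peptides, of which Esp24, for example, had only 10 break ends in M1 and 11 in M2. The 6 windows of 1 kb from 39843001 to 39849000 held 27022 break ends in M1 and 25887 in M2, which is 0.212% and 0.211% of all autosomal break ends. Part of that stretch is annotated as Rn18s-rs5, a pseudogene related to ribosomal RNA genes, which are present in many copies, and its 3 densest windows carry no annotated gene. The sources used here do not say how reads that match several places were treated.

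The other 4 of the densest bins were packed with genes. On chromosome 10, 80000001 to 81000000 held 54 coding genes and had 1.12 in M1 and 1.43 in M2. The genes there include Stk11, a kinase that activates AMPK, and Gpx4, which reduces lipid peroxides. On chromosome 11, 120000001 to 121000000 held 47 coding genes, the cytoskeletal actin gene Actg1 and the fatty acid synthase gene Fasn among them, at 0.950 and 1.16. On chromosome 15, 76000001 to 77000000 held 52, among them Dgat1, which makes triglycerides from absorbed fat, at 0.933 and 1.16. On chromosome 7, 19000001 to 20000000 held 55, among them the apolipoprotein gene Apoe, at 0.924 and 1.16. All 4 were higher in M2 than in M1, whereas the bin on chromosome 17 differed little.

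The 5 sparsest bins were gene-poor or held families of similar genes, and many of their windows were empty. On chromosome 6, 69000001 to 70000000 had 0.111 in M1 and 0.114 in M2, no coding gene, and break ends in 51.4% of its 1 kb windows. On chromosome 7, 42000001 to 43000000 had 0.144 and 0.149 and holds vomeronasal receptor and zinc finger genes. On chromosome 8, 19000001 to 20000000 had 0.148 and 0.153 and holds beta-defensin genes. On chromosome 7, 14000001 to 15000000 had 0.154 and 0.143 and holds Sult2a sulfotransferase genes, and on chromosome 3, 91000001 to 92000000 had 0.153 and 0.156 with 3 coding genes. Whether reads can be placed uniquely in these bins was not tested.

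At 1 kb, the densest windows carried more than an even share of the breaks, and most of the shared dense windows held a listed gene start. The promoter table used here lists no start for 4208 of the 20665 coding genes, those of chromosome 18 among them, so counts of windows with a start are lower bounds. The densest 1% of occupied windows, ranked in each library by itself, carried 7.84% of the break ends of M1 and 9.43% of those of M2. Most break ends thus lay elsewhere, and ranking windows by the same counts by itself raises this share. Of the 1000 densest windows of each library, 684 were the same, out of 2202330 occupied windows. Across all occupied windows the rho of M1 with M2 was only 0.542, with a median of 5 break ends per window in M1 and 4 in M2. Outside chromosome 18, 414 of the 664 shared windows (62.3%) held a listed coding start, against 0.811% of all occupied windows. Likewise 603 of 664 (90.8%) overlapped a coding gene, against 43.5%. Relative to occupied length the shared windows were most frequent on chromosome 19, with 0.563 per Mb, and on chromosome 11, with 0.536, and least frequent on chromosome 6, with 0.156.

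None of the 10 densest windows held a listed coding start. Together they carried 0.262% of the autosomal break ends of M1 and 0.267% of those of M2. The first 5 lay in the stretch of chromosome 17 described above, led by chr17:39844001-39845000 with 11452 break ends in M1 and 11027 in M2 over 702 and 668 positions. The sixth, chr9:35305001-35306000, held 1934 and 2035 in the long noncoding RNA gene Gm33838. Neighbouring windows from 98666001 to 98668000 on chromosome 2 held 1422 and 1623, and 1781 and 1909, with no annotated gene. A window in the noncoding Gm36876 held 740 and 785, and one in Sfi1 on chromosome 11 held 721 and 891. In none of the 10 did a single base hold over 50% of the break ends. The highest such share was 44.9% in M1 and 46.7% in M2, at base 98667227 of chromosome 2. Whether reads can be placed uniquely in these 10 windows was not tested, so their counts may not all be breaks at these places.

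The densest window with a listed coding start ranked eleventh of all, and the 10 densest of this kind reached from 445 down to 164 break ends in M1. The window of Hjurp, the chaperone that loads the centromeric histone, held 445 break ends in M1 and 469 in M2. Herpud1 had 191 and 217, and Derl2, which moves misfolded proteins out of the endoplasmic reticulum, shares its window with the kinetochore gene Mis12 at 184 and 202. Cyp51, an enzyme of cholesterol synthesis, had 199 and 182. In these 4 windows the most used base held between 11.7% (Hjurp) and 19.6% (Cyp51) of the break ends in M1, and between 11.1% (Herpud1) and 19.2% (Cyp51) in M2.

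In contrast, the window of Uba2 held 187 break ends in M1 and 228 in M2, of which 109 and 136 lay at the single base 34168530 of chromosome 7. That base is the last of the Uba2 sequence printed above, just before this annotated start. Ap1ar likewise had 77 of 171 break ends at base 127837832 of chromosome 3 in M1 and 90 of 165 at the same base in M2. The other windows of the set were those of Son, a splicing cofactor, with 181 and 234, and of the stress-induced sestrin Sesn2 with 178 and 163. B4galt3, a galactosyltransferase, had 166 and 198, of which 80 and 76 lay at base 171270285 of chromosome 1. The translation initiation factor gene Eif4g3 had 164 and 186.

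Heavily hit bases recurred between the libraries. Of the positions with exactly 1 break end in M1, 13.3% also had a break end in M2, and this share went up to 36.2% at 2 break ends and to 85.1% at 5 to 9. All 644 positions with 30 or more break ends in M1 and all 853 in M2 were found in the other library. In all, 1813294 positions were common to both, 16.9% of those of M1 and 17.7% of those of M2.

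Protein-coding gene bodies were denser than the rest of the autosomes. The 20665 annotated coding genes, of which 3707 overlap another, covered 42.6% of the occupied length and held 49.7% of the break ends of M1 and 50.7% of those of M2. Density was 0.529 in M1 and 0.539 in M2 inside, and 0.399 and 0.391 outside. The ratio was 1.33 in M1 and 1.38 in M2 (1.35 ± 0.0383, SD, n = 2). With windows within 2 kb of gene starts left out, an alternative chosen after seeing the data, it was 1.24 and 1.27.

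Single genes spanned a wide range, and both libraries ranked them alike. The median over all coding genes was 0.576 in M1 and 0.593 in M2, and 887 genes had no break end in either. A minimum of 100 break ends over both libraries left 15739 genes, whose median was 0.635 and 0.669, with a 5th percentile of 0.328 and a 95th percentile of 2.01 for the mean of the libraries. Across these genes the rho of M1 with M2 was 0.956, over genes of the same 2 libraries. Of the 100 densest genes of each library, 70 were the same. Nt5e, the gene of the sort marker, had 337 break ends in M1 and 343 in M2 over 44.5 kb, which is 0.595 and 0.628, close to the median of all genes. Its start window was at 3.93 and 4.07.

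**Figure D2:**
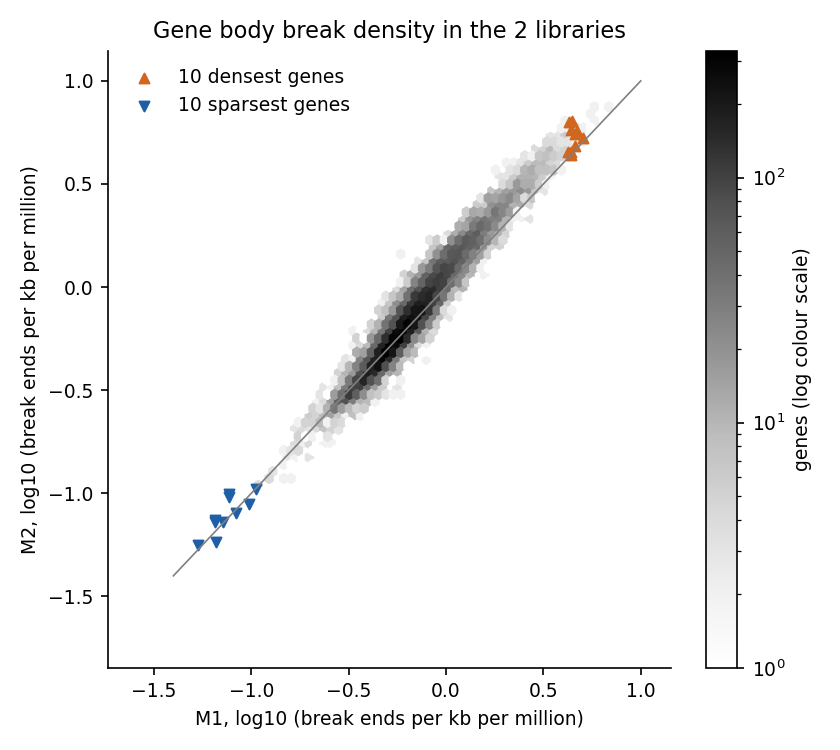
Gene body density of the 15739 genes with at least 100 break ends, M1 on the x axis and M2 on the y axis, both as log10 of break ends per kb per 1000000; grey hexagons count genes, the line marks equal density, and triangles mark the 10 densest and 10 sparsest genes by the rule in the text. Grey hexagons beyond the upper triangles are genes shorter than 2 kb or overlapping another, which that rule leaves out.

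The 10 densest genes, ranked by the lower of the 2 libraries among non-overlapping genes of at least 2 kb, were all short, from 2.03 to 3.62 kb. Gsc, the homeobox factor goosecoid, had 131 break ends in M1 and 132 in M2 in 2.03 kb, a density of 5.07 and 5.30. Jun, a subunit of AP-1, had 181 and 250, a density of 4.46 and 6.38, so that the libraries differed more there. Hes6 and Neurog2, both basic helix-loop-helix factors, were at 4.61 and 5.54 and at 4.38 and 4.54. Irf2bp1, a corepressor, was at 4.24 and 4.54. Cenpb, which binds centromeric repeats, was at 4.38 and 5.77.

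Sowaha, Ankrd9 and Tmem102 lay between 4.26 and 4.58 in M1 and between 4.37 and 6.34 in M2. Just outside the 10 were Abhd11 with 4.26 and 4.15 and Hps6 with 4.14 and 5.62. The breaks of these genes were not all at their starts. The start window of Hes6, at 10.9 and 11.7, was denser than its body. That of Gsc was sparser, at 1.31 in M1 and 0.543 in M2.

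The 10 sparsest genes of at least 10 kb included members of several families of similar genes and contained many empty windows. Mug2, a murinoglobulin protease inhibitor, had 54 break ends in M1 and 55 in M2 over 79.2 kb, a density of 0.0535 and 0.0565, and 45.0% of its 1 kb windows were empty. The organic anion transporter genes Slc22a30, Slc22a28 and Slc22a27 had 58 and 62, 58 and 64, and 100 and 124 break ends, and between 26.2% and 42.3% of their windows were empty. The zinc finger genes Zfp984 and Zfp442, the vomeronasal receptor gene Vmn2r91 and the complement factor H-related gene Cfhr2 lay between 0.0715 and 0.0974 in M1 and between 0.0727 and 0.0963 in M2. Gm7827 was at 0.0660 and 0.0582. Dnah7c, an axonemal dynein heavy chain, was at 0.106 and 0.105. Its neighbour and near copy Dnah7b, with 0.107 and 0.101, was just outside, followed by 4930522L14Rik with 0.109 and 0.105. Over all coding genes of at least 10 kb, 4.95% of windows were empty on average, so for these genes unplaced reads and fewer breaks cannot be told apart.

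Among long genes with a listed start, density went down with length, and this was weaker away from the start. In the 9191 genes with at least 10 kb left beyond 2 kb of their listed starts, the rho of whole-gene density with length was -0.400. Over the bases beyond 2 kb of a start in the same genes it was -0.201. The median density beyond the starts was 0.496 in M1 and 0.484 in M2. Split by length into 5 equal groups, the shortest had 0.522 and 0.528 and the longest, of median length 163 kb, 0.453 and 0.429. The rho of the density beyond 2 kb with that of the start window was 0.224. In the 15739 genes with 100 break ends the rho with length was -0.656, but a short gene passes that minimum only when it is dense. Over all 20665 genes it was -0.103, and the relation did not run in one direction. Of 5 equal groups of all genes by length, the shortest was the sparsest, with medians of 0.429 in M1 and 0.415 in M2. The second shortest was the densest, at 0.765 and 0.893, and the longest was at 0.497 and 0.487. The shortest group, of median length 1.70 kb, was mixed: 560 of its 4133 genes had no break end, and its 90th percentile was 2.49. Sparse families of short genes, such as the 1100 olfactory receptor genes of median length 0.950 kb, were not separated from length here.

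Break density peaked at gene starts. The 20085 start windows of 16457 genes together made up 0.257% of the occupied length and held 1.72% of the break ends of M1 and 1.99% of those of M2. The median gene's start window was 2.97 times as dense as the average of all gene bodies in M1 and 3.52 times in M2. Density between 5 and 4.9 kb before the start was 0.500 in M1 and 0.534 in M2. It was above that level from about 2 kb before the start, at 0.556 and 0.597, and passed 0.849 and 1.01 at 1000 bases before.

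The peak lay in the first 100 bases after the start, at 3.86 in M1 and 4.67 in M2, 7.74 and 8.94 times the level at the edge. In steps of 10 bases the summit was 30 to 39 bases after the start, at 4.62 and 5.46. Behind the peak both libraries showed a trough and 2 lower maxima. Density fell to 1.73 in M1 at 140 bases and to 2.06 in M2 at 150 bases, and came back to 2.56 and 3.04 at 230 bases. A second maximum followed at 410 bases, with 2.40 and 2.80. Gene ends showed no peak: density there ran from 0.566 in the 100 bases just before the end in M1 (0.634 in M2) to 0.571 and 0.639 just after it.

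**Figure D3:**
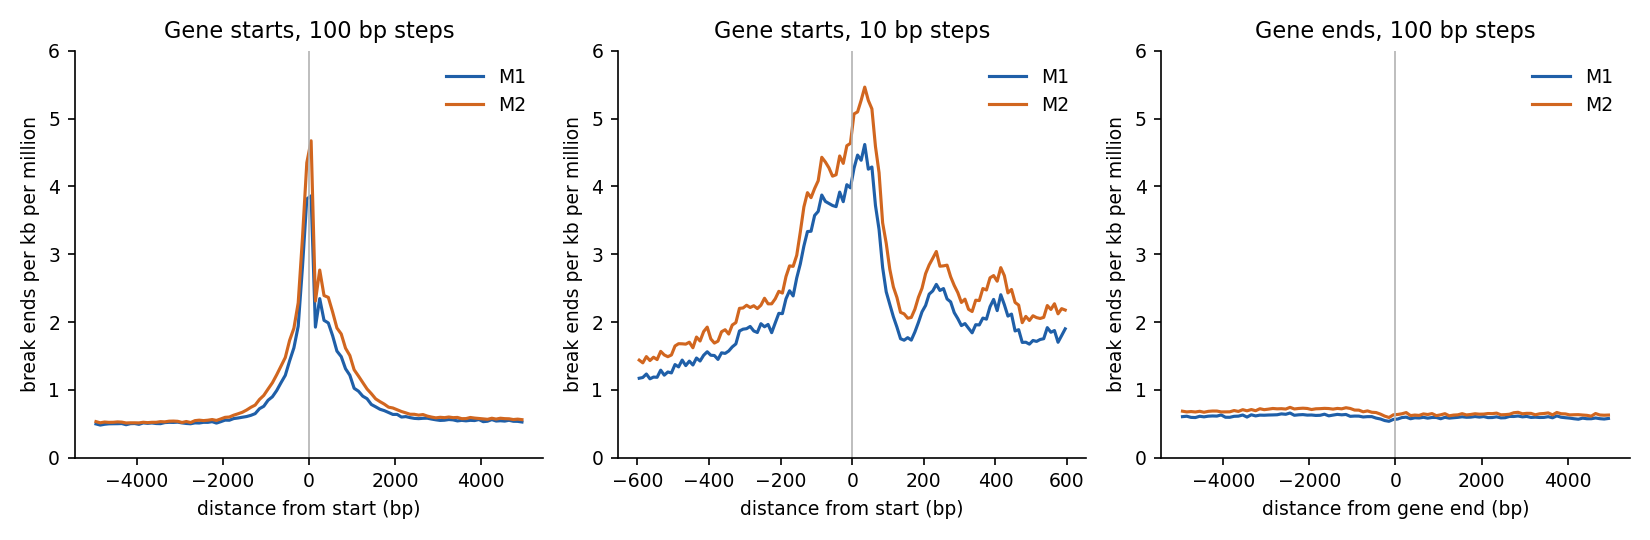
Mean break density (break ends per kb per 1000000) over 16457 genes by distance in bp from the annotated start in steps of 100 (left) and 10 (middle), and from the annotated end (right), in M1 and M2, with the direction of transcription to the right. Both libraries peak just after the start, at 3.86 and 4.67, with a trough near 150 bases, and show no peak at gene ends.

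Starts with more CG dinucleotides were denser, up to a point. The 2205 windows with 0 or 1 CG had a median of 0.262 in M1 and 0.271 in M2, which is what a single break end is worth in a window of 300 bases. Medians were 1.57 and 1.90 at 8 to 13 CG, 4.45 and 5.43 at 20 to 25, and 4.71 and 5.15 at 26 to 33. At 34 or more they were lower again, at 2.88 and 3.26. Across the 20085 windows the rho of density with CG number was 0.634 and with GC percent 0.527, as a description over windows of the same 2 libraries. The spread within a class was wide: at 26 to 33 CG the 10th percentile of the mean of both libraries was 0.935 and the 90th percentile 13.7. Windows with no break end in either library made up 31.1% of the lowest class and 2.02% of the highest.

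**Figure D4:**
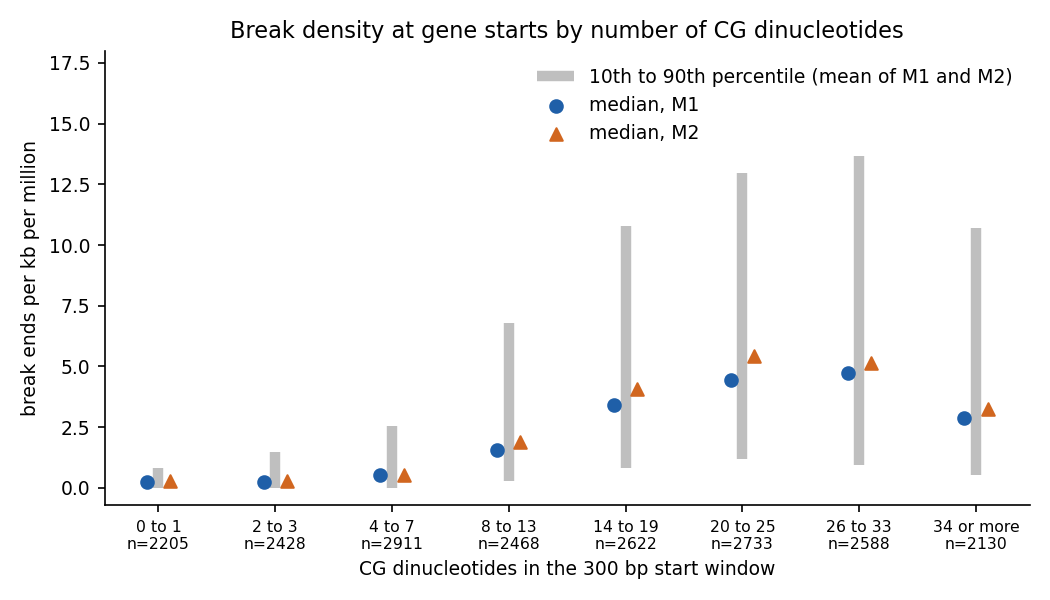
Break density (break ends per kb per 1000000) of 300 bp start windows by their number of CG dinucleotides, with the median in M1 (circles) and M2 (triangles) and the 10th to 90th percentile of their mean (grey bars); n counts windows. Medians go from 0.262 and 0.271 at 0 or 1 CG to 4.71 and 5.15 at 26 to 33 and are lower at 34 or more.

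Short sequence motifs were counted in the 20063 distinct start windows, on both strands and without regard to overlap with each other. GGGCGG, the core of Sp1 sites, occurred in 47.0% of all windows, in 71.4% of the densest 10% (2006 windows, by the lower library) and in 12.2% of the 1936 windows with no break end. GGGCGG contains a CG, so its count moves with the CG number. TATAAA showed the opposite order, with 12.7% of all windows, 4.74% of the densest 10% and 24.6% of those with none. CCAAT occurred in 38.1%, 48.8% and 43.6%, and TGANTCA, the letters of the AP-1 motif with any base in the middle, in 7.06%, 3.79% and 10.2%. A match of letters is not a bound site.

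Genes whose starts face away from each other within 1 kb had denser starts. With 1 start window per gene, the 1282 such genes had a median of 5.24 in M1 and 5.97 in M2, against 1.31 and 1.63 in the 15175 other genes with a listed start. Divergent starts also held more CG, with a median of 24 against 12. Among windows with at least 8 CG the medians were 5.50 and 6.24 against 3.14 and 3.80. A window of such a pair can also hold break ends of the opposite start, and the file gives no strand to separate them.

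Gene lists were described over all members found on the autosomes, beside all 20665 coding genes. The CG number of start windows was not matched between lists. Its median ran from 1 (olfactory receptor), 4.5 (lymphocyte) and 5.5 (nutrient absorption) to 24 (proliferation) and 25 (immediate early), against 14 over all genes. Of 36 nutrient absorption genes 34 lie there, with a median of 0.786 in M1 and 0.743 in M2. Relative to all genes that was 1.37 and 1.25 times, and 28 of 34 were above the median of all genes. Among those that passed the minimum of 100 break ends the ratio was 1.24 and 1.11. Amn, which forms the vitamin B12 receptor with cubilin, was the densest at 2.80 and 3.30, and Apoa1, the main protein of HDL, followed at 2.77 and 2.96. Apoa4, an apolipoprotein of chylomicrons, had 1.71 and 2.18. The sparsest were Cubn, the partner of Amn, at 0.550 and 0.483, Plb1 at 0.541 and 0.463, and the fatty acid transporter Cd36 at 0.436 and 0.436.

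These genes were dense along their bodies: beyond 2 kb of the starts, 21 of the 22 long enough had more than the median of 0.490 of all genes, with a median of 0.671. Their start windows had a median of 2.09 and 2.04, against 1.57 and 1.90 over all genes, and 17 of 28 were above the median. Chosen after values were seen, the glucose transporter gene Slc5a1 had 740 and 677 break ends, a density of 0.994 and 0.942, and sucrase-isomaltase, Sis, had 583 and 550, a density of 0.577 and 0.564.

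Enterocyte identity genes were dense too, with a median of 1.04 in M1 and 1.09 in M2, and 28 of 29 above the median of all genes. The tight junction gene Cldn3 had 96 and 100 break ends in only 1.26 kb, a density of 5.97 and 6.44. Ihh, the hedgehog ligand of the epithelium, was at 2.87 and 3.92, and Cldn7, another claudin, at 2.86 and 3.67. The lowest were the long genes Tjp1, a junction scaffold, at 0.658 and 0.635, the intestinal cadherin Cdh17 at 0.668 and 0.575, and the nuclear receptor gene Hnf4g at 0.604 and 0.531. Beyond 2 kb of starts, 10 of 10 of these genes were above the median of all genes, at a median of 0.784.

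Crypt stem cell genes had a median of 0.654 in M1 and 0.721 in M2 and 8 of 14 above that of all genes. The transcription factor genes Ascl2 (3.70 and 6.03) and Sox9 (2.42 and 2.64) were the highest. The stem cell marker gene Lgr5 (0.543 and 0.490), Olfm4 (0.598 and 0.413) and Znrf3 (0.497 and 0.474) were the lowest.

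Proliferation genes combined dense starts with ordinary bodies. Their median was 0.669 and 0.711, and 17 of 23 were above that of all genes. At their starts, medians reached 9.03 in M1 and 6.78 in M2, and 16 of 19 were above the median of all starts. Beyond 2 kb of the starts, only 3 of 12 were above the median of all genes. Top2a, topoisomerase II alpha, showed both, at 0.495 and 0.477 over the body and 11.3 and 11.7 at the start.

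Lists for other cell types of the gut were mostly lower. Goblet cell genes had a median of 0.487 in M1 and 0.488 in M2, with 3 of 10 above that of all genes. Atoh1 was the highest of these, at 2.37 and 2.95. Muc2, the main mucin, was the lowest, at 0.149 and 0.145, but 60.0% of its windows were empty. Tuft cell genes were at 0.493 and 0.473 with 5 of 13 above. Ltc4s was the highest of these, at 3.34 and 3.50. The doublecortin-like kinase gene Dclk1, a tuft cell marker, was at 0.376 and 0.366. Lymphocyte genes were at 0.507 and 0.426 with 2 of 15 above. Zap70 was the highest of these, at 0.822 and 1.08, and Ptprc, the leukocyte antigen CD45, was at 0.417 and 0.322. Stromal genes were at 0.489 and 0.453 with 4 of 14 above, with the collagen genes Col1a1 at 0.911 and 1.43 and Col3a1 at 0.294 and 0.388.

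None of the start windows of lymphocyte (10 genes) or stromal genes (7 genes) was above the median of all starts. Enteroendocrine genes had 9 of 14 above the median of all genes, at a median of 0.727 and 0.946, yet 4 of 14 at starts. Chga, a granule protein of these cells, was at 1.05 and 1.19. The 7 Paneth cell genes found were at 0.154 and 0.126, and 3 of them had no break end in either library. On average 49.4% of their windows were empty, against 6.53% over all genes, and the defensin genes among them have near-identical copies. Break density at a marker gene is not its expression, and how many other cells the sort held was not tested.

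Immediate early genes, which are transcribed within minutes of a stimulus, headed the lists. All 30 immediate early genes were above the median of all genes, at a median of 2.02 in M1 and 2.47 in M2. Ier2 had 132 and 145 break ends in 1.52 kb, a density of 6.81 and 7.75, Junb was at 4.99 and 8.45, and Jun was described above. The lowest 3, the AP-1 gene Fosl2 (0.930 and 1.05) and the nuclear receptor genes Nr4a1 (0.816 and 1.02) and Nr4a3 (0.672 and 0.858), were still above that median. Their starts had medians of 3.67 and 4.07, with 18 of 23 above the median of all starts. These genes are short, with a median length of 4.66 kb against 17.5 kb over all genes.

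Ribosomal protein genes were at 1.27 in M1 and 1.50 in M2, with 76 of 81 above the median of all genes. They are short as well, with a median length of 3.18 kb, and 0 of them had a value beyond 2 kb of starts. Rpl36al was the highest that passed the minimum, at 3.83 and 3.84, and the muscle paralogue Rpl3l the lowest, at 0.585 and 0.832. Their many processed copies elsewhere in the genome make these counts uncertain. Histone genes were at 0.688 and 0.931, with 44 of 76 above, and at 3.93 and 5.16 at their starts, with 53 of 71 above. Near-identical copies make their single values uncertain as well.

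Hox genes, which set position along the body axis, were all above the median of all genes, 39 of 39, at 1.10 and 1.54. Hoxa5 was at 2.11 and 2.87 and Hoxc4 at 0.574 and 0.677. At their starts, however, only 7 of 22 were above the median of all starts. They lie in clusters, and 10 of the 39 overlap another coding gene. Their median length is only 3.74 kb. Just 3 had a value beyond 2 kb of starts, and these 3 were above the median of all genes there.

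Among the lists, those of very long genes and of sensory receptor genes were at the sparse end. Genes named for common fragile sites had a median of 0.331 in M1 and 0.307 in M2, with 0 of 27 above that of all genes. Auts2 was the highest, at 0.517 and 0.503, and Csmd1 the lowest, at 0.282 and 0.261, with 5904 and 5277 break ends over 1643 kb. Their starts were ordinary, with 9 of 17 above the median of all starts. Beyond 2 kb of the starts 0 of 17 were above the median of all genes, and the list median there was 0.363. Their median length of 1185 kb is far above the 109 kb of the longest of 5 equal groups of all genes, whose median density was 0.497 in M1 and 0.487 in M2.

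Neuronal genes were at 0.334 and 0.326, with 0 of 17 above, and they too are long, with a median of 428 kb. Cntnap2, with 8428 and 7844 break ends over 2241 kb, was at 0.295 and 0.285. The tubulin gene Tubb3 had an ordinary body, at 0.510 and 0.661, and a dense start, at 8.12 and 11.7.

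The 1100 olfactory receptor genes, which are expressed in the nose, were at 0.172 in M1 and 0.171 in M2, or 0.299 and 0.289 times the median of all genes. Among genes with at least 100 break ends, which include 20 of these receptors, the ratio was 0.460 in M1 and 0.532 in M2. Of all 1100 receptor genes, 130 had no break end in either library and 53 (4.82%) were above the median of all genes. At starts, 1 of 934 was above the median. Their start windows held a median of 1 CG, against 14 over all genes. The median density there was 0.262 in M1 and 0.271 in M2, the same as over all windows with 0 or 1 CG. The 1 kb windows of these receptor genes were empty in 6.17% on average, close to the 6.53% of all genes. With a median length of 0.950 kb, most hold only a few break ends each, so single receptors were not ranked.

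**Figure D5:**
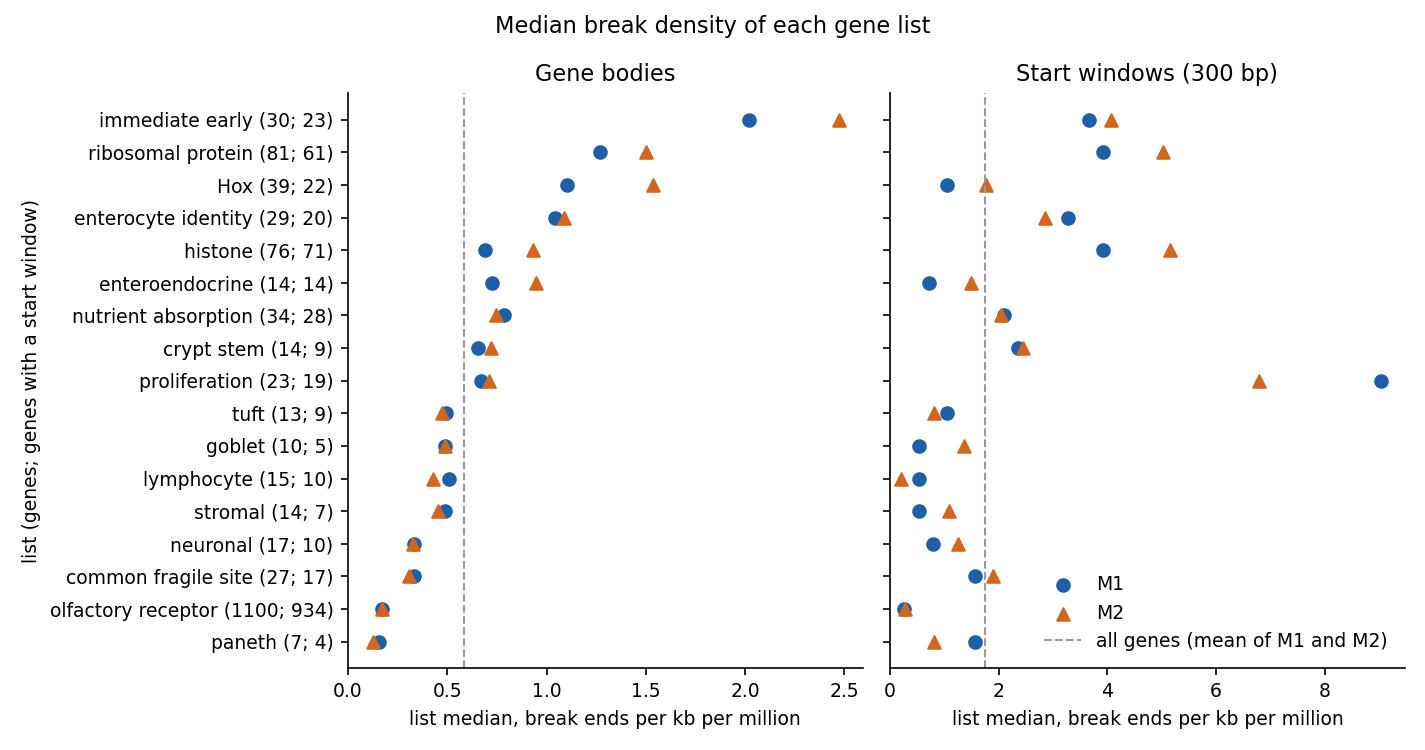
Median break density (break ends per kb per 1000000) of the members of each gene list in M1 (circles) and M2 (triangles), over gene bodies on the left and 300 bp start windows on the right; numbers in brackets are genes and genes with a start window, and dashed lines mark the median of all genes. Immediate early genes head the left panel at 2.02 and 2.47, and proliferation genes stand out on the right at 9.03 and 6.78.

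M1 and M2 were close but not equal within counting error. Among the 3403 genes with at least 1000 break ends over both, the log2 ratio of M2 to M1 had a median of -0.03 and an SD of 0.15 across genes, where counting alone would give 0.07. In 32.6% of genes the ratio lay outside the 95% range of counting. Only 3 genes (0.0882%) were over 1.5-fold denser in M2, and none (0) was over 1.5-fold sparser. The 3 were Jph3, a junctophilin of excitable cells, with 405 break ends in M1 and 595 in M2, Nphp4, a protein of the ciliary transition zone, with 804 and 1186, and Dock6, a guanine nucleotide exchange factor, with 658 and 993. Git2, with 529 and 763, and Arid3a, with 429 and 620, followed.

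On the other side, Sh3rf2 had 815 break ends in M1 and 575 in M2, and Ptprc had 599 and 447. Rhbdd1 (784 and 593), Egflam (1043 and 807) and Vwc2 (652 and 507) followed. These are the extremes of many genes and were chosen for that difference. The ratio went along with density: in 5 equal groups from the sparsest to the densest of these genes its median was -0.08, -0.06, -0.04, -0.01 and 0.13. M2 thus had a slightly steeper landscape, as it also did for chromosomes, 1 Mb bins and start windows.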

How the data were processed

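The deposited files give, per the labels and the values, a count of break ends for each position of each library, without strand and not normalized by the authors. Reads were aligned with BWA to GRCm38, per the submitters' processing notes. The BWA version, mapping quality filters, and whether counts are reads or unique molecular identifiers are not stated in any source used here, so depth speaks of counting error only.

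Counts were summed with Python 3.11.15, numpy 2.4.6, pandas 2.3.3 and scipy 1.17.1 over chromosomes, 1 Mb bins, 1 kb windows, gene bodies and start windows (gene models and starts of RefSeq, GRCm38.p6), per kb and per 1000000 autosomal break ends. Chromosome length and the length inside and outside genes leave out 1 kb windows empty in both libraries; bins and genes use full length. The counting was tested on simulated data. Chromosomes X and Y, mitochondrial DNA and contigs stayed out. The promoter table has no window for 4208 coding genes, all those of chromosome 18 included.

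Named were the 10 densest (at least 2 kb) and 10 sparsest (at least 10 kb) non-overlapping genes with at least 100 break ends, up to 3 members at each end of a list among those passing that minimum, Nt5e, the 10 densest windows, the 5 densest and 5 sparsest bins, the 5 genes at each end of the M2 to M1 ratio (at least 1000 break ends), and 4 promoters; not every gene picked is named. The members, lists and rules were chosen with earlier results of these data known. Profiles, values beyond 2 kb of starts, CG classes, divergent starts, windows with a coding start and shared positions were added after the files were seen. Alternatives were each position counted once, positions over 100 break ends left out, equal depth, other bin and window sizes, full chromosome length, 1 kb flanks, other minimums, overlapping genes left out and each library left out.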

Additional observations from a re-analysis of the deposited data

How the results depend on the processing

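Of 44 alternatives other than leaving out a library, 26 stayed within 1 SD between the libraries and 18 moved further. Shared genes and windows were judged by the 95% interval, and rho to 2 decimals. Leaving out positions over 100 break ends and equal depth moved no result, but both change the data little. Those positions held 0.113% of the break ends of M1 and 0.121% of those of M2. Equal depth only took M1 from 12730960 break ends to the 12286024 of M2. All 18 that moved came from the other alternatives. The ratios for inside over outside, starts, nutrient absorption and olfactory receptors stayed on the same side of 1 in every alternative tried for them. The chromosome range and the bin ratio cannot fall below 1, and shares have no direction, so a reversal could not be seen there. Counting each position once gave a chromosome range of 1.20, a 95th over 5th percentile of 1 Mb bins of 2.28, a share in the densest 1% of 1 kb windows of 5.58%, an inside to outside ratio of 1.29, a rho over genes of 0.942, 60.0% of densest windows shared and 0.355 for olfactory receptor genes. Full chromosome length gave 1.38, 100 kb bins 3.29, and 5 kb windows a share of 5.80% and 72.0% shared. Gene bodies with 1 kb on each side gave 1.45 inside over outside, and, chosen after seeing the data, leaving out windows near starts gave 1.26. The start to body ratio was 4.24 without empty start windows. Without a minimum the rho over genes was 0.950 and nutrient absorption genes were at 1.31; beyond 2 kb of starts, chosen after seeing the data, these were at 1.37. Olfactory receptor genes with 100 break ends were at 0.496.

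Leaving out a library gave 1.22 to 1.28 (chromosomes), 2.50 to 2.75 (bins), 7.84% to 9.43% (windows), 1.33 to 1.38 (inside over outside), 2.97 to 3.52 (starts), 1.11 to 1.24 (nutrient absorption) and 0.289 to 0.299 (olfactory receptors). With 2 libraries, leaving 1 out returns the value of the other, so these ranges restate both libraries and are no further check. No paired analysis was possible because only 1 group was used. A start window of 300 bases gains 0.262 in M1 and 0.271 in M2 from each break end, so single sparse starts cannot be ranked.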

Other observations

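Outside the autosomes, chromosome X had 308981 break ends in M1 and 295830 in M2, which per occupied kb is 0.440 and 0.436 times the autosomal average. Chromosome Y had 3573 and 3374 break ends over 2489 occupied kb, or 0.248 and 0.243 times. The labels give no sex and the copy number of X and Y was not taken into account. These ratios are therefore not densities per chromosome copy. The mitochondrial genome had 1167 and 698.

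By type of annotated gene, the pooled density over full gene length, relative to the average over full autosomal length, was 2.83 for 1136 miRNA genes, with 1269 break ends in M1 and 1367 in M2. It was 2.38 for 391 tRNA genes, with 317 and 387, and 1.54 for 1286 snoRNA genes, with 1201 and 1164. Coding genes were at 1.25, long noncoding RNA genes at 1.06, snRNA genes at 0.917 and pseudogenes at 0.573. Small RNA genes often lie inside other genes and tRNA and snRNA genes have near-identical copies, so these values are not of independent units.

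Distances between occupied positions had a fine structure that was alike in both libraries. Relative to the mean over 50 to 100 bp, pairs of positions 1 bp apart were 3.67 times as frequent in M1 and 3.55 in M2, pairs 7 bp apart 0.567 and 0.575, and pairs 10 bp apart 1.53 and 1.53. Beyond that, frequency went up and down with a period of about 10 to 11 bp, with maxima of the mean of both libraries at 22, 33, 43, 53 and 64 bp. What sets this spacing was not tested.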
